A study of Homo sapiens with 12 samples.

Results

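Glypicans and syndecans are the 2 families of heparan sulphate proteoglycans that sit on the surface of most cells. All 10 human members, GPC1 to GPC6 and SDC1 to SDC4, were followed here, and each matched 1 of the 62754 gene identifiers in the count table. The study sequenced polyadenylated RNA of PC9, an established line from a human lung adenocarcinoma with an activating EGFR mutation, in 12 libraries. GPC4 was selected on its level in these data, chosen by its rise in the TDP1 knockout, so its knockout values are given as a description, and the other 9 members were taken as its relatives.

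All cultures came from a PC9 subclone, and the 3 cultures of a group were split from 1 flask and then grown apart, so p-values measure the spread between such cultures. Of the 4 groups, 3 were TDP1 wild type: one without drug (untreated WT), one kept for 7 days with erlotinib at 1 µM, called drug-tolerant (DTC), and one kept for 28 days at that dose, called drug-tolerant expanded (DTEC). Erlotinib inhibits the EGFR kinase. The remaining group was the TDP1 knockout line KO2 without drug (KO). KO is 1 line, so its differences from untreated WT cannot be told apart from differences between lines. TDP1 is an enzyme that frees DNA ends from trapped topoisomerase I. TDP1 levels were 28.1, 25.1 and 25.8 CPM (read counts scaled to a common library total) for untreated WT, 15.7, 12.7 and 13.5 for DTC, 28.4, 25.4 and 26.1 for DTEC and 10.1, 11.3 and 10.98 for KO, where its mean was 41.0% of untreated WT.

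A glypican is held in the outer leaflet of the membrane by a glycosylphosphatidylinositol (GPI) anchor. A syndecan crosses the membrane and ends in a short cytoplasmic tail that binds PDZ proteins and the cytoskeleton. Both carry heparan sulphate chains, which hold growth factors, morphogens, chemokines and matrix proteins near their receptors, and enzymes can release the core proteins from the cell.

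Library totals ran from 25572691 to 38373679 estimated counts, and 3 counts, taken as the counting floor, corresponded to 0.0782 to 0.117 CPM before further scaling. CPM below are scaled to the library totals with TMM factors, ± is the standard deviation (SD) over 3 libraries, and a change was called at an adjusted p under 0.05 in edgeR's quasi-likelihood test over 17115 genes. Epithelial markers (6 of 6 detected) summed to 10794 to 11395 CPM for untreated WT, 6293 to 7277 for DTC, 9276 to 12151 for DTEC and 11479 to 12314 for KO. From untreated WT to DTC, KRT8 went from 4015 ± 195 to 1869 ± 158 CPM, KRT18 from 2930 ± 124 to 1184 ± 92.2, KRT19 from 1190 ± 68.5 to 946 ± 122 and EPCAM from 634 ± 69.3 to 363 ± 3.85, while KRT7 (1965 ± 88.4 and 2071 ± 239) and CDH1 (285 ± 6.06 and 298 ± 85.1) had overlapping values. Fibroblast markers (1 of 7 tested) summed to 7.99 to 8.91 CPM for untreated WT, 55.0 to 57.8 for DTC, 11.1 to 14.1 for DTEC and 13.5 to 15.1 for KO, most of it COL1A1 (55.7 ± 1.32 CPM in DTC), while COL3A1 had at most 1 count and DCN at most 2. PDGFRB had 1 to 12 counts, and 4 of the 7 markers exceeded the floor in a DTC library, against 2 in each other group. Immune markers (3 of 6 tested) summed to 27.0 to 33.9 CPM for untreated WT, 38.9 to 55.3 for DTC, 35.1 to 41.7 for DTEC and 25.9 to 29.4 for KO. PTPRC had no more than 5 counts, while LYZ went from 0.217 ± 0.159 CPM in untreated WT to 1.36 ± 0.257 in DTC. Endothelial markers (3 of 4 tested) summed to 58.5 to 61.4 CPM for untreated WT, 42.1 to 50.1 for DTC, 122 to 142 for DTEC and 75.8 to 77.2 for KO. In DTEC PECAM1 was at 92.1 ± 2.74 CPM. Mitochondrial reads took 4.43% to 5.41% of the counts in DTC and 1.82% to 2.78% in the other libraries. The part of these shifts in the results below was not tested, and in bulk RNA fewer cells of a type and less RNA per cell cannot be told apart.

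The promoters of 4 members are printed here because they carry the main contrast of the results: 2 rose in DTC (GPC4, SDC4) and 2 fell (GPC1, SDC1). Each line gives the 250 bases before the RefSeq transcript start, 5′ to 3′ in the gene's direction, with GGGCGG on either strand (the GC box bound by SP1-type factors) in capitals.
GPC4: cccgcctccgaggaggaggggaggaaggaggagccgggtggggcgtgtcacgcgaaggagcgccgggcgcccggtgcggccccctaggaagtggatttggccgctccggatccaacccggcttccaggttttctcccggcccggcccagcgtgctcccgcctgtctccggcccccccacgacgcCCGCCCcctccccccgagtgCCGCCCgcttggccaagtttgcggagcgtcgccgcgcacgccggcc
SDC4: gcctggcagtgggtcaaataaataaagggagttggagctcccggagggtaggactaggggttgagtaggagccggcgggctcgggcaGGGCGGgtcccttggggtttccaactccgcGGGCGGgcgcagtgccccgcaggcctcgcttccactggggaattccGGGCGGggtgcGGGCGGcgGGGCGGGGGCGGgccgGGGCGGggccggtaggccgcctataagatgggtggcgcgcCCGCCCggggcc
GPC1: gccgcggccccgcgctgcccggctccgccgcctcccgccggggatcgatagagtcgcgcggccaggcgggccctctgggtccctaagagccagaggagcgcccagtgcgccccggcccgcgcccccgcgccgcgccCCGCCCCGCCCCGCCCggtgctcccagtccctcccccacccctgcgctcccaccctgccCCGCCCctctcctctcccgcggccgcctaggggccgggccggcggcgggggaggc
SDC1: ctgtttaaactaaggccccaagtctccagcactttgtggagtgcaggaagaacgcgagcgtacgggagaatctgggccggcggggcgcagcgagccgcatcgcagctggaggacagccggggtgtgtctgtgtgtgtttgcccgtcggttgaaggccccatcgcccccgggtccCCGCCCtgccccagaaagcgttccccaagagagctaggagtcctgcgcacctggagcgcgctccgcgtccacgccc

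These windows lie on GRCh38.p14 at chrX:133415490-133415739 (minus strand) for GPC4, chr20:45348425-45348674 (minus) for SDC4, chr2:240435413-240435662 (plus) for GPC1 and chr2:20225476-20225725 (minus) for SDC1. The RefSeq promoter table held 9 windows for 8 of the 10 members, with 2 for SDC1, the second at chr2:20225131-20225380. GGGCGG was found in 8 of the 9 windows, against 42.6% of all 35116 promoters of the table: GPC4 held 2, SDC4 8, GPC1 4 (some sharing bases) and the printed SDC1 window 1. GPC6 had no GC box. Its window was 37.6% G+C with 6 CpG, while the other windows ran from 62.4% to 84.0% G+C with 19 to 37 CpG, and the medians over all promoters were 58.0% and 11. TATAAA was found for GPC5 and GPC6 (10.7% of all promoters). The letters TGANTCA (6.57% of all promoters), GGAATG (11.9%) and CACGTG (6.34%), searched on both strands, were in none of the 9 windows. The 4 printed windows were among the 8 that held the GC box, and GPC6, which also fell in DTC, was not printed. Any relation of the GC box to the direction in DTC was not tested.

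Of the 10 members, 7 passed the filter. In DTC 3 rose (GPC2, GPC4, SDC4), 3 fell (GPC1, GPC6, SDC1) and SDC3 was not called, where 67.3% of all tested genes were called, 34.0% higher and 33.3% lower. In DTEC 2 rose (GPC6, SDC3) and 2 fell (GPC1, SDC1), where 52.3% of all genes were called, 26.0% higher and 26.3% lower. From DTC to DTEC GPC6 rose and 5 members fell (GPC1, GPC2, GPC4, SDC1, SDC4), where 55.4% of all genes were called, 28.8% higher and 26.6% lower. In KO, GPC4 aside, SDC3 was the 1 member called of 6 tested, where 4.31% of all genes were called, 2.76% higher and 1.55% lower. Libraries of the 2 groups did not overlap for 5 of 7 members in DTC (68.9% of all genes), 4 of 7 in DTEC (62.4%), 6 of 7 in DTEC against DTC (56.7%) and, GPC4 aside, 3 of 6 in KO (35.7%). Nothing particular to the families is read from these shares. Every contrast but DTEC against DTC shares the untreated WT libraries. Total counts alone changed the split of all calls from 5818 higher and 5702 lower to 8008 and 3702 in DTC (median of all genes moved by 0.35 on the log2 scale), from 4449 and 4506 to 5748 and 3269 in DTEC (0.17), from 4923 and 4557 to 3555 and 5951 in DTEC against DTC (-0.19), and from 473 and 265 to 676 and 182 in KO (0.07). The upper quartile gave 7566 and 4080 in DTC (0.29), 3683 and 5840 in DTEC against DTC (-0.17) and a median shift of 0.11 in DTEC. Directions here are relative to the TMM reference.

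**Figure D1:**
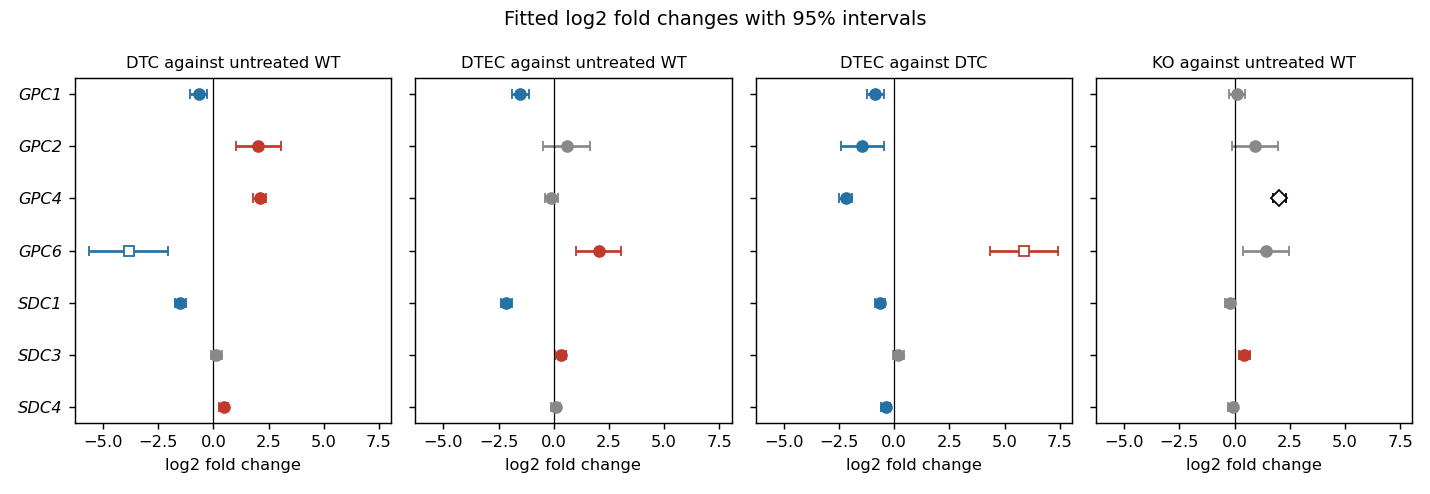
Fitted log2 fold changes (x axis, same scale in each panel) with 95% intervals for the 7 tested members (y axis) in the 4 contrasts: red marks called higher, blue called lower, grey not called, the open diamond GPC4 in KO, which has no test, and open squares GPC6 against a group at the counting floor, where the fitted size is not a bound. GPC4 sits near 2 in DTC and in KO, near 0 in DTEC, and near -2 in DTEC against DTC.

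Among the glypicans, GPC4 (ENSG00000076716, chromosome X, 133300103 to 133415490, GRCh38, minus strand) was the member for which the family was chosen. It encodes a glypican known as a co-receptor for Wnt, FGF and BMP ligands. GPC4 levels were 6.42, 7.69 and 6.84 CPM for untreated WT, 34.1, 26.6 and 28.5 for DTC, 7.46, 6.45 and 5.44 for DTEC and 30.0, 29.03 and 26.4 for KO. The levels therefore fell into a high pair of groups, DTC and KO, whose libraries overlapped each other, and a low pair, DTEC and untreated WT, whose libraries also overlapped.

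In KO the mean of GPC4 was 4.08 times that of untreated WT (28.5 ± 1.88 against 6.98 ± 0.647 CPM, SD, n = 3). The fitted log2 fold change was 2.03 (SE 0.138), given without a test, and it stayed between 1.99 and 2.12 over all settings tried. In DTC, a contrast the choice did not use although it shares the untreated WT libraries, GPC4 rose 4.26 times (29.7 ± 3.87 CPM; log2 fold change 2.09, SE 0.138, edgeR adjusted p 1.06e-08). From DTC to DTEC, a contrast with no library in common with the choice, it fell by 2.20 on the log2 scale (SE 0.139, edgeR adjusted p 1.89e-08), to 6.45 ± 1.01 CPM. DTEC was then at 92.4% of untreated WT, with a log2 difference of -0.11 (95% interval -0.42 to 0.19, edgeR adjusted p 0.519), and the sign of that difference changed with scaling to total counts (0.053) and without DTEC replicate 3 (0.0067).

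**Figure D2:**
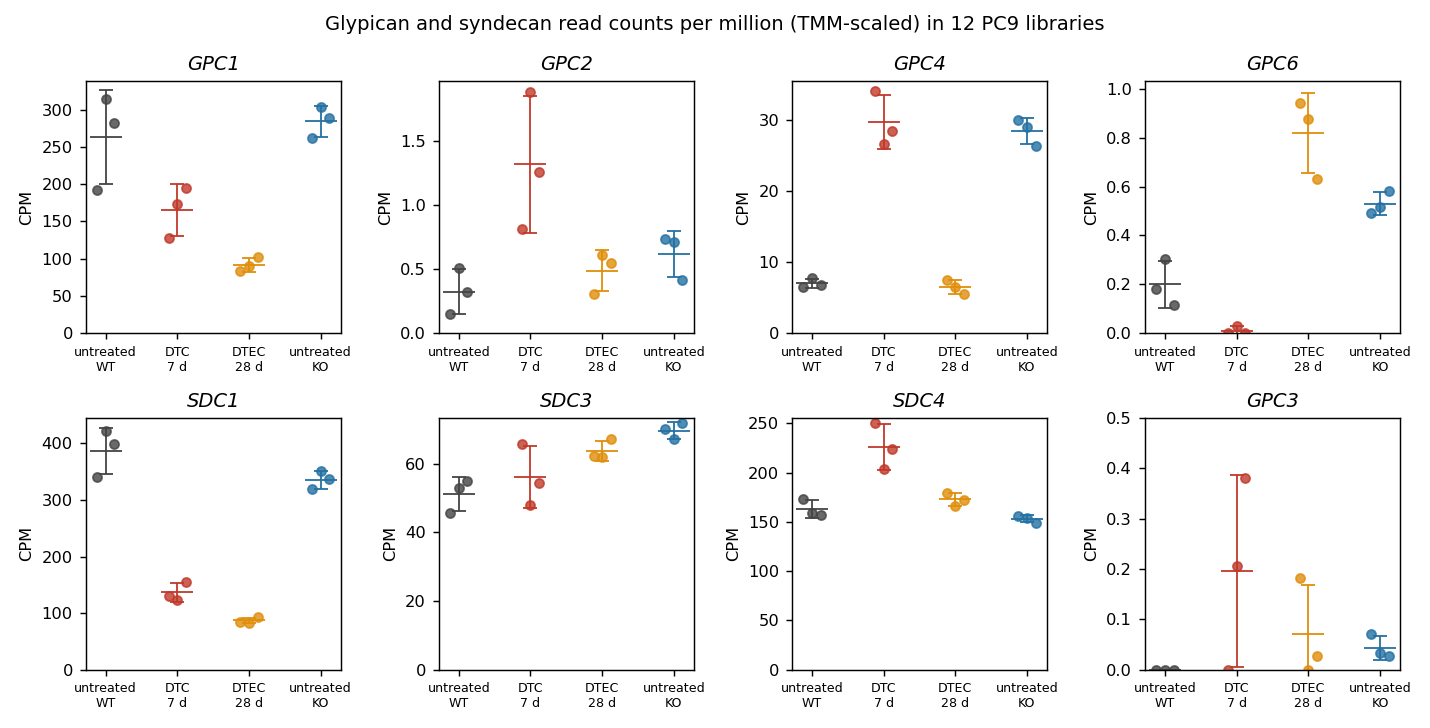
Points show the TMM-scaled CPM (y axis, from 0) of 8 members in each of the 12 libraries, with the group (x axis) mean as a horizontal line and the SD over 3 libraries as an error bar. GPC4 is high in DTC and KO (26.4 to 34.1 CPM) and low in untreated WT and DTEC (5.44 to 7.69 CPM), while SDC1 is high in both untreated groups.

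GPC1 (ENSG00000063660, chromosome 2, 240435671 to 240468078, plus strand), a glypican that binds FGF2 and other growth factors and is common in carcinomas, was the most abundant glypican. Its levels were 193, 315 and 282 CPM for untreated WT, 127, 174 and 195 for DTC, 83.0, 89.7 and 102 for DTEC and 262, 303 and 289 for KO. The DTC and untreated WT libraries overlapped, through untreated WT replicate 1 and DTC replicate 3, and every DTEC library lay below every library of the other 3 groups. GPC1 fell by 0.67 in DTC on the log2 scale (SE 0.177, edgeR adjusted p 0.00406), but with total counts alone the value was -0.32 (adjusted p 0.133) and with the upper quartile -0.38 (0.0818), and neither was called. It was lower again at 28 days, with a mean of 34.8% of untreated WT (log2 fold change -1.52, SE 0.181, edgeR adjusted p 1.03e-05). The drop from DTC to DTEC was itself called (-0.85, SE 0.179, edgeR adjusted p 0.00111). In KO the log2 difference was 0.11 (95% interval -0.27 to 0.49, edgeR adjusted p 0.806), and it changed sign without untreated WT replicate 1 (-0.052).

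The other glypicans were scarce. GPC2 (ENSG00000213420, chromosome 7, 100169606 to 100177372), best known from developing neurons and neuroblastoma, had 5, 15 and 11 counts across untreated WT, 24, 64 and 43 across DTC, 10, 16 and 20 across DTEC, and 21, 22 and 15 across KO. Its 3 DTC libraries (0.811, 1.88 and 1.26 CPM) lay above all others. It rose in DTC (0.324 ± 0.178 to 1.32 ± 0.539 CPM; log2 fold change 2.03, SE 0.473, edgeR adjusted p 0.00159) and fell from DTC to DTEC by 1.44 (SE 0.454, edgeR adjusted p 0.0149). Against untreated WT the log2 difference was 0.59 in DTEC (95% interval -0.48 to 1.66, edgeR adjusted p 0.336) and 0.94 in KO (95% interval -0.12 to 1.99, edgeR adjusted p 0.366). The fall from DTC was not called without DTC replicate 2 (-1.12, adjusted p 0.0752) or DTEC replicate 1 (-1.21, 0.0554).

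GPC6 (ENSG00000183098, chromosome 13, 93226842 to 94407401), which belongs to the same glypican subfamily as GPC4, moved opposite to GPC4 in DTC. Its counts were 6, 9 and 4 for untreated WT, 0, 1 and 0 for DTC, 31, 23 and 23 for DTEC, and 14, 16 and 21 for KO. DTC was thus at the floor while untreated WT was only just above it, and the DTEC and KO libraries all had more counts than any untreated WT library. DTC was at least 2.15-fold lower than untreated WT, computed against 3 counts in each DTC library (edgeR adjusted p 0.00100). DTEC was 4.10 times untreated WT (0.818 ± 0.164 against 0.199 ± 0.0957 CPM; log2 fold change 2.03, SE 0.473, edgeR adjusted p 0.00241) and at least 8.84-fold above DTC (edgeR adjusted p 1.09e-05). In KO the log2 difference of 1.42 (95% interval 0.38 to 2.45) was not called over all genes (edgeR adjusted p 0.132). An antisense transcript that shares exon sequence with GPC6 had at most 3 counts in any library.

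GPC3 and GPC5 did not pass the filter on low counts and are given as counts. GPC3 (ENSG00000147257, chromosome X, 133535745 to 133985895), an oncofetal glypican of liver, had 0 counts in all 3 untreated WT libraries, 0, 7 and 13 across DTC, 6, 0 and 1 across DTEC, and 2, 1 and 1 across KO. GPC3 lies 120 kb from GPC4 on the same strand, and it stayed at or under 3 counts in the KO libraries in which GPC4 had 855, 897 and 954. GPC5 (ENSG00000179399, chromosome 13, 91398607 to 92873682) had at most 2 counts in any library.

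Among the syndecans, SDC1 (ENSG00000115884, chromosome 2, 20200797 to 20225433, minus strand), the main syndecan of epithelia and plasma cells, fell in both drug-treated groups. SDC1 levels were 341, 421 and 398 CPM for untreated WT, 130, 124 and 155 for DTC, 84.8, 83.4 and 93.0 for DTEC and 320, 351 and 336 for KO. Neither step overlapped, since all DTC libraries lay below all untreated ones, and all DTEC libraries lay below all DTC ones. The mean was 35.3% of untreated WT in DTC (log2 fold change -1.50, SE 0.112, edgeR adjusted p 3.51e-08) and 22.5% in DTEC (-2.15, SE 0.115, edgeR adjusted p 7.03e-09). DTEC against DTC gave -0.65 (SE 0.111, edgeR adjusted p 0.000204). In KO the log2 difference was -0.20 (95% interval -0.44 to 0.03, edgeR adjusted p 0.381), and KO and untreated WT overlapped.

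SDC4 (ENSG00000124145, chromosome 20, 45325288 to 45348424, minus strand), a syndecan of focal adhesions that works with integrins, did the reverse at 7 days. SDC4 levels were 174, 159 and 157 CPM for untreated WT, 251, 204 and 224 for DTC, 179.5, 166 and 173 for DTEC and 156, 154 and 149 for KO. Only the DTC libraries stood clear above the other groups. The rise in DTC was 1.39-fold (log2 fold change 0.47, SE 0.0943, edgeR adjusted p 0.000494), and DTEC was below DTC by 0.39 (SE 0.0943, edgeR adjusted p 0.00297). DTEC against untreated WT was 0.08 (95% interval -0.12 to 0.28, edgeR adjusted p 0.488), called with scaling to total counts (0.25, adjusted p 0.0344). All KO libraries lay just below all untreated WT ones, with a log2 difference of -0.09 (95% interval -0.29 to 0.11, edgeR adjusted p 0.682).

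SDC3 (ENSG00000162512, chromosome 1, 30869467 to 30908761, minus strand), a syndecan with a long extracellular part that is best known from the nervous system, had group means from 51.1 to 69.6 CPM. SDC3 levels were 45.6, 53.0 and 54.8 CPM for untreated WT, 65.7, 47.9 and 54.3 for DTC, 62.1, 62.0 and 67.1 for DTEC and 70.0, 67.1 and 71.9 for KO. All KO and all DTEC libraries lay above all untreated WT libraries, while DTC spanned them. The KO value was 0.45 (SE 0.116, edgeR adjusted p 0.0447) and the DTEC value 0.32 (SE 0.116, edgeR adjusted p 0.0330). Both calls were lost in several settings: in KO with RLE scaling (0.0510) and without any one KO or untreated WT library (0.0929 to 0.210) or without DTC replicate 3, DTEC replicate 1 or DTEC replicate 2 (0.0545 to 0.0753), and in DTEC with no count filter (0.0521) or when replicate 1 or 2 of untreated WT, or replicate 2 or 3 of DTEC, was left out (0.0539 to 0.138). In DTC the value of 0.13 (95% interval -0.12 to 0.38, edgeR adjusted p 0.335) was called with total counts alone (0.48, adjusted p 0.00215), with the upper quartile (0.42, 0.00408) and without DTC replicate 2 (0.29, 0.0424). SDC3 in DTEC against DTC, at 0.19 (edgeR adjusted p 0.186), was called without DTC replicate 1 (0.29, adjusted p 0.0156). SDC2 (ENSG00000169439, chromosome 8), the syndecan of mesenchymal cells, had 1 count in 1 DTC library and 0 counts in the other 11.

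To compare levels between genes, CPM were divided by the exon length of each gene. On this scale SDC1 was the most abundant member in untreated WT (108 ± 11.4 CPM per kb of exon, SD, n = 3), followed by SDC4 (62.5 ± 3.42), GPC1 (40.4 ± 9.70), SDC3 (7.24 ± 0.690) and GPC4 (1.41 ± 0.130). The other 5 were each below 0.1 CPM per kb there. In DTC and DTEC the order of the first pair was exchanged, with SDC4 at 86.6 ± 8.96 and 66.1 ± 2.53 and SDC1 at 37.99 ± 4.59 and 24.2 ± 1.44. Summed over all members, the level per length was 219 ± 18.8 for untreated WT, 164 ± 10.9 for DTC, 115 ± 3.77 for DTEC and 212 ± 6.81 for KO. SDC1 made up 49.0% ± 1.08 of the sum for untreated WT, 23.1% ± 1.74 for DTC, 21.0% ± 0.727 for DTEC and 44.1% ± 0.706 for KO. SDC4 made up, in the same order, 28.7% ± 4.08, 52.7% ± 3.88, 57.5% ± 1.83 and 27.7% ± 1.26. The family sum was thus mostly syndecan throughout (76.5% to 86.4% in the 4 group means), and GPC4 never exceeded a mean of 3.65%, in DTC, against 2.72% in KO, 1.13% in DTEC and 0.642% in untreated WT.

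**Figure D3:**
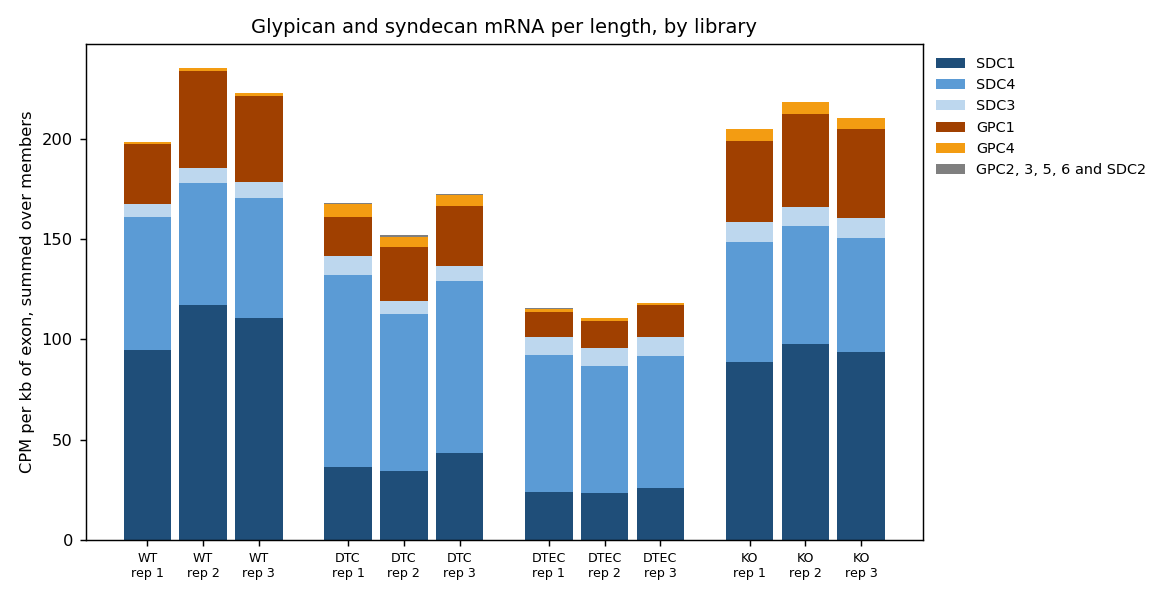
Stacked bars give, for each library (x axis), CPM per kb of exon summed over the 10 members (y axis, from 0), coloured by gene. The sum averages 219 for untreated WT, 164 for DTC, 115 for DTEC and 212 for KO, and the SDC1 segment is the one that shrinks most between untreated WT and the treated groups.

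GPC4 lies in a run of genes on the long arm of chromosome X, and 8 of the 10 neighbours listed were tested. In KO 0 of those 8 were called by edgeR or DESeq2, and 0 had an unadjusted p under 0.05, with log2 fold changes from -0.17 (HPRT1, a purine salvage enzyme) to 0.18 (PABIR3), where GPC4 stood at 2.03. Over all tested genes 4.31% were called in KO. In DTC 2 neighbours rose and 4 fell, where 67.3% of all genes were called. HS6ST2, which adds 6-O-sulphate to heparan sulphate and whose start lies -454 kb from that of GPC4, fell in DTC from 263 ± 8.26 to 71.1 ± 10.3 CPM (log2 fold change -1.89, SE 0.132, edgeR adjusted p 1.77e-08), opposite to GPC4. Distances are along the chromosome from the GPC4 start, negative toward its short arm. MOSPD1, at 1500 kb, rose by 1.74 (edgeR adjusted p 8.62e-07), and MBNL3, a splicing factor, fell by 1.22 (edgeR adjusted p 9.86e-06). In DTEC 3 neighbours rose and 2 fell, where 52.3% of all genes were called, with HPRT1 at -1.08 (edgeR adjusted p 2.41e-05), MOSPD1 at 0.90 (0.000591) and PABIR3 at 0.63 (0.00345). From DTC to DTEC 5 rose and 2 fell, where 55.4% of all genes were called. The largest changes were those of HS6ST2 (1.34, edgeR adjusted p 1.17e-06), CCDC160 (1.10, 0.00927), MBNL3 (1.02, 9.39e-05) and MOSPD1 (-0.83, 0.000973). CCDC160 had at most 55 counts in any library. TFDP3 and USP26, testis genes beside GPC4, had 0 counts in all libraries.

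**Figure D4:**
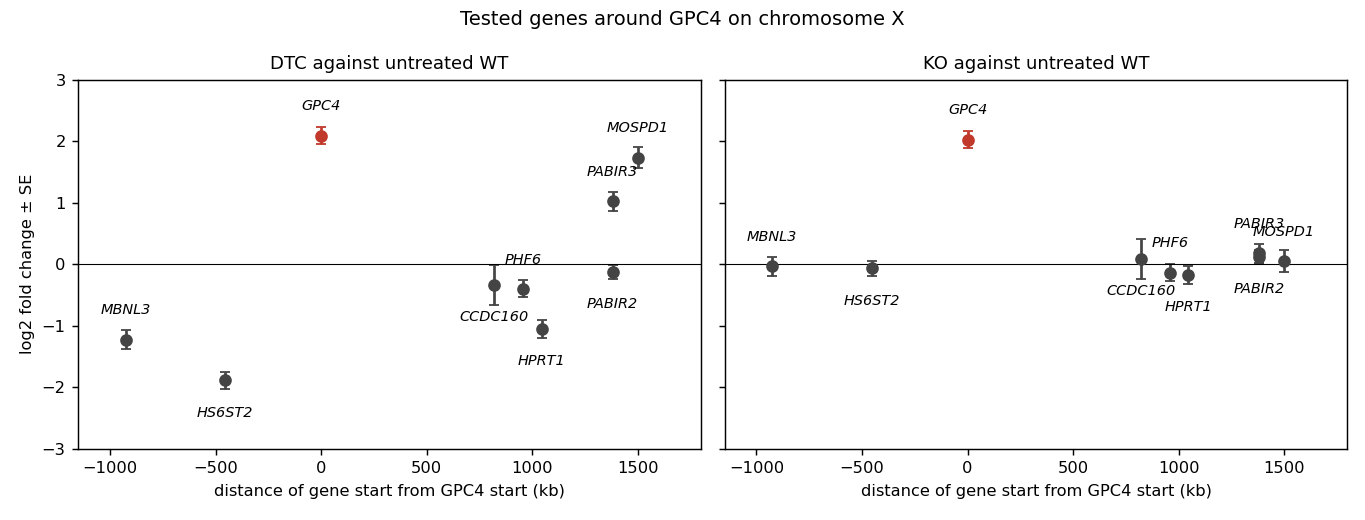
Log2 fold change ± SE (y axis) of GPC4 (red) and its tested neighbours (grey) against the distance of each gene's start from that of GPC4 in kb (x axis), for DTC and KO against untreated WT. In KO the neighbours lie between -0.17 and 0.18 and GPC4 at 2.03, while in DTC neighbours lie on both sides of 0.

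The 5 genes outside the families whose log2 CPM were most like GPC4 over the 12 libraries, of 11185 with a mean of at least 5 CPM, were ADGRB2, OAS3, CPA4, FMNL3 and MOB3B, with Pearson r of 0.932, 0.927, 0.925, 0.924 and 0.919. These values describe 12 libraries in 4 groups, not 12 independent points. They include the KO libraries by which GPC4 was chosen, and the 5 genes were picked for the highest r. The size of r is therefore a description and was not tested. ADGRB2, an adhesion G-protein-coupled receptor, had means of 20.2 ± 3.36 CPM for untreated WT, 57.3 ± 11.4 for DTC, 15.1 ± 2.11 for DTEC and 45.1 ± 3.31 for KO. CPA4, a secreted carboxypeptidase, in the same order, was at 101 ± 4.44, 422 ± 53.2, 68.9 ± 6.25 and 210.3 ± 2.69. OAS3, an interferon-induced enzyme, in the same order, was at 5.81 ± 0.686, 29.1 ± 5.08, 4.79 ± 0.147 and 13.6 ± 1.54. Within the families the highest r with GPC4 was 0.653, for GPC2, and the lowest -0.44, for GPC6.

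The heparan sulphate chains on these cores are built by a line of Golgi enzymes: a linker is laid down, EXT1 and EXT2 polymerise the chain, NDST enzymes start its sulphation, and 2-O-, 6-O- and 3-O-sulphotransferases finish it. Of 28 such genes 18 were tested. In DTC 4 rose and 10 fell, with a median log2 fold change of -0.35 against 0.06 over all genes. In DTEC 3 rose and 10 fell (median -0.39 against 0.02), from DTC to DTEC 7 rose and 5 fell (median 0.16 against -0.01), and in KO 0 of 18 were called by edgeR or DESeq2, with 4 at an unadjusted p under 0.05 (median 0.03 against -0.01). The shares of all tested genes called in these 4 contrasts were 67.3%, 52.3%, 55.4% and 4.31%.

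EXTL3, which adds the first N-acetylglucosamine of the chain, fell from 98.8 ± 5.63 CPM in untreated WT to 43.7 ± 9.30 in DTC (log2 fold change -1.18, SE 0.126, edgeR adjusted p 1.37e-06) and was at 52.3 ± 3.04 in DTEC (-0.92, SE 0.125, edgeR adjusted p 3.13e-05). NDST2 rose in DTC from 9.26 ± 0.862 to 18.2 ± 3.93 CPM (0.98, edgeR adjusted p 3.96e-05). NDST1, its more abundant relative, fell in DTEC from 207 ± 13.5 to 139 ± 27.8 CPM (-0.57, edgeR adjusted p 0.00408). NDST1 in DTC was not called (-0.13, edgeR adjusted p 0.446), and NDST2 was above untreated WT in DTEC (0.43, edgeR adjusted p 0.0248). In DTEC EXTL3 and NDST1 were thus lower and NDST2 higher, in a list where most called genes fell. HS6ST2 rose again from DTC to DTEC (to 179 ± 30.7 CPM; 1.34, edgeR adjusted p 1.17e-06) but stayed below untreated WT (-0.55, edgeR adjusted p 0.00219). HS6ST1, the other 6-O-sulphotransferase of the list that was tested, named after its values were seen, had means of 124 ± 13.0 CPM for untreated WT, 89.5 ± 5.26 in DTC (-0.48, edgeR adjusted p 0.00368, not called with total counts alone, -0.12 and 0.406, or the upper quartile, -0.19 and 0.199) and 88.4 ± 16.4 in DTEC (-0.49, edgeR adjusted p 0.00426). EXT1, the polymerase subunit, fell from DTC to DTEC from 145 ± 27.0 to 72.8 ± 8.29 CPM (-0.99, edgeR adjusted p 1.42e-05), and so did B4GALT7, a linker enzyme (-1.06, edgeR adjusted p 0.000406). PXYLP1, a phosphatase that acts on the linker xylose, rose in DTEC from 26.6 ± 2.34 to 41.3 ± 5.75 CPM (0.63, edgeR adjusted p 0.000626).

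A second list of 14 genes covered enzymes that edit finished chains or release the cores, of which 11 were tested. In DTC 6 rose and 3 fell (median 1.56), and in DTEC 5 rose and 0 fell (median 0.48). The DTEC values below untreated WT had edgeR adjusted p from 0.254 (FURIN) to 0.827 (ADAM17). From DTC to DTEC 4 rose and 6 fell (median -1.08), and in KO 1 rose (median 0.31). Over all genes 67.3%, 52.3%, 55.4% and 4.31% were called, with medians of 0.06, 0.02, -0.01 and -0.01. MMP14, a membrane metalloproteinase that can shed SDC1, rose in DTC from 1.60 ± 0.679 to 36.8 ± 1.79 CPM (log2 fold change 4.53, SE 0.219, edgeR adjusted p 6.45e-10) and was at 6.82 ± 0.330 in DTEC, having dropped by 2.43 from DTC on the log2 scale (SE 0.190, edgeR adjusted p 1.51e-07). MMP14 was also the 1 gene of this list called in KO, at 8.17 ± 0.436 CPM (2.36, SE 0.216, edgeR adjusted p 2.27e-05), a gene named there after its value was seen. SULF2, which removes 6-O-sulphate at the cell surface, was the most abundant gene of the list at 1114 ± 56.4 CPM in untreated WT. SULF2 fell to 282 ± 40.2 in DTC (-1.98, SE 0.115, edgeR adjusted p 3.22e-09) and rose to 1508 ± 121 in DTEC, above untreated WT (0.44, SE 0.111, edgeR adjusted p 0.00432). From DTC to DTEC SULF2 rose by 2.42 (edgeR adjusted p 1.38e-09). ADAM10, a sheddase, rose in DTEC (0.52, edgeR adjusted p 0.0184), a call lost without untreated WT replicate 2 (0.0649) or DTEC replicate 1 (0.0663). GDPD5, which cleaves the GPI anchor of glypicans, rose in DTC from 4.86 ± 0.802 to 15.5 ± 2.33 CPM (1.67, edgeR adjusted p 1.08e-06) and fell to 6.39 ± 1.18 in DTEC (-1.27 from DTC, edgeR adjusted p 2.68e-05). GPLD1, a second GPI-cleaving phospholipase, rose in DTEC from 3.76 ± 0.633 to 9.49 ± 0.0621 CPM (1.34, edgeR adjusted p 1.88e-05).

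Proteins that bind syndecan tails or act with them formed a list of 11, all tested. In DTC 1 rose and 6 fell (median -0.45), in DTEC 3 rose and 3 fell (median -0.10), from DTC to DTEC 7 rose and 1 fell (median 0.41), and in KO 0 were called by edgeR or DESeq2, with 1 at an unadjusted p under 0.05 (median 0.02). These counts stand beside 67.3%, 52.3%, 55.4% and 4.31% of all genes called and all-gene medians of 0.06, 0.02, -0.01 and -0.01. TIAM1, a Rac exchange factor whose PDZ domain binds SDC1, fell in DTC from 57.1 ± 1.34 to 7.66 ± 1.80 CPM (log2 fold change -2.90, SE 0.135, edgeR adjusted p 4.62e-10) and was at 76.6 ± 4.19 in DTEC (3.33 above DTC, edgeR adjusted p 3.66e-10). CASK, another PDZ partner, fell in DTC by 1.54 (edgeR adjusted p 5.91e-07) and rose by 1.65 from there to DTEC (7.19e-07). SDCBP2, the syntenin relative, was the riser in DTC, from 8.68 ± 0.243 to 59.2 ± 12.2 CPM (2.77, SE 0.160, edgeR adjusted p 3.12e-09), and it fell by 2.93 from DTC to DTEC (edgeR adjusted p 4.96e-09). SDCBP, syntenin itself, was at 116 ± 12.8 CPM in untreated WT and 159 ± 11.6 in DTEC (0.45, edgeR adjusted p 0.0111), a call lost without untreated WT replicate 2 (0.0504). PRKCA, the kinase that SDC4 binds, fell in DTC (-0.71, edgeR adjusted p 0.00219) and was above untreated WT in DTEC (0.53, edgeR adjusted p 0.0173). ACTN4, an actin cross-linker, was below untreated WT in DTC (-0.81, edgeR adjusted p 2.28e-05). In DTEC ACTN4 was at 769.5 ± 101 CPM, against 1084 ± 123 in untreated WT (-0.49, edgeR adjusted p 0.00236).

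Other carriers of heparan sulphate numbered 10, of which 9 were tested. In DTC 4 rose and 3 fell (median 0.21), in DTEC 1 rose and 1 fell (median -0.16), from DTC to DTEC 3 rose and 4 fell (median -0.33), and in KO 1 rose (median 0.26). Of all genes 67.3%, 52.3%, 55.4% and 4.31% were called in the same order, with medians of 0.06, 0.02, -0.01 and -0.01. The secreted testicans SPOCK2 (3.43 ± 0.293 to 12.9 ± 0.701 CPM; log2 fold change 1.92, edgeR adjusted p 6.55e-08) and SPOCK1 (1.81, edgeR adjusted p 8.74e-06) rose in DTC. SPOCK2 was still above untreated WT in DTEC (1.16, edgeR adjusted p 2.27e-05), while SPOCK1 (-2.20, edgeR adjusted p 3.48e-06) and SRGN, the intracellular proteoglycan serglycin (127 ± 44.3 to 33.5 ± 5.04 CPM; -1.92, edgeR adjusted p 3.92e-06), fell from DTC to DTEC. The part-time proteoglycan NRP1, a semaphorin and VEGF co-receptor, fell in DTC from 167 ± 10.96 CPM in untreated WT to 46.2 ± 9.61 (-1.86, edgeR adjusted p 2.03e-08). From DTC to DTEC NRP1 rose by 1.69 (edgeR adjusted p 1.31e-07). CD44, the hyaluronan receptor, fell in DTC from 2186 ± 31.9 CPM in untreated WT to 801 ± 214 (-1.45, edgeR adjusted p 8.10e-07). From DTC to DTEC it rose by 1.07 (edgeR adjusted p 3.01e-05). Its DTEC level was below untreated WT (-0.38, edgeR adjusted p 0.0387), a call lost in 14 of 20 alternatives (0.0528 to 0.230), among them total counts alone and leaving out any one untreated WT, DTEC or KO library. TGFBR3, or betaglycan, fell in DTC to 17.3 ± 4.52 CPM (-1.51, edgeR adjusted p 3.96e-07) and rose by 1.41 from DTC to DTEC (edgeR adjusted p 1.89e-06). In KO it rose from 49.3 ± 1.29 to 80.3 ± 3.58 CPM (0.70, SE 0.139, edgeR adjusted p 0.0103), a call lost without untreated WT replicate 1, KO replicate 1 or KO replicate 2 (0.0501 to 0.0545).

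Of 27 ligands and matrix proteins known to bind heparan sulphate, 18 were tested. In DTC 12 rose and 3 fell (median 1.35), in DTEC 7 rose and 6 fell (median 0.12), from DTC to DTEC 5 rose and 11 fell (median -1.19), and in KO 2 rose and 2 fell (median -0.0036). Against these, 67.3%, 52.3%, 55.4% and 4.31% of all genes were called, and the all-gene medians were 0.06, 0.02, -0.01 and -0.01. A gene could pass the count filter through a single group. TFPI (0.0978 ± 0.141 CPM for untreated WT, 7.82 ± 0.0728 for DTC, 0.0356 ± 0.0385 for DTEC) passed through DTC. It could therefore count only as a riser in DTC and as a faller from DTC to DTEC. VTN, the adhesive plasma protein vitronectin, was near the counting floor in untreated WT (0.103 ± 0.0635 CPM) and at 54.2 ± 8.89 in DTC (fitted log2 fold change 8.996, edgeR adjusted p 3.26e-11) and 2.45 ± 0.652 in DTEC (-4.46 from DTC, 8.35e-10). CXCL8, the chemokine interleukin-8, rose in DTC from 0.637 ± 0.155 to 17.8 ± 6.94 CPM (4.79, edgeR adjusted p 2.81e-07) and fell to 1.65 ± 0.993 in DTEC (-3.43 from DTC, 5.54e-06). Fibronectin (FN1), bound by SDC4 at focal adhesions, had means of 95.3 ± 5.89 CPM for untreated WT, 8868 ± 3744 for DTC and 862 ± 62.8 for DTEC (log2 fold change 6.54 in DTC, SE 0.261, edgeR adjusted p 2.41e-10, 3.18 in DTEC, 1.17e-07, and -3.36 from DTC to DTEC, 5.27e-08). BMP4 had means of 10.6 ± 1.32 (untreated WT), 27.7 ± 1.18 (DTC), 25.8 ± 3.30 (DTEC) and 16.7 ± 1.17 CPM (KO). BMP4 was called in DTC (1.39, edgeR adjusted p 2.04e-07), in DTEC (1.29, edgeR adjusted p 1.19e-06) and in KO (0.66, edgeR adjusted p 0.00780). The KO call was lost without untreated WT replicate 1 (0.0510). PDGFB rose from 24.0 ± 3.57 CPM in untreated WT to 152 ± 12.1 in DTC (2.66, edgeR adjusted p 2.74e-10) and fell by 1.45 from DTC to DTEC (edgeR adjusted p 1.21e-07). In DTEC it was still above untreated WT (1.22, edgeR adjusted p 8.28e-07). HBEGF, the heparin-binding ligand of EGFR, fell in KO from 53.0 ± 1.61 to 27.2 ± 1.54 CPM (-0.96, SE 0.117, edgeR adjusted p 0.000325). It was also below untreated WT in DTC (-1.45, edgeR adjusted p 8.48e-08) and in DTEC (-0.88, edgeR adjusted p 2.37e-05). The other 2 genes called in KO, named after their values were seen, were AREG (-0.89, edgeR adjusted p 0.0351, lost without any one KO or untreated WT library, 0.0909 to 0.148, without DTC replicate 3, 0.0542, and with no count filter, 0.110) and VTN (2.55, edgeR adjusted p 0.00507), both under 3 CPM in KO and in untreated WT.

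**Figure D5:**
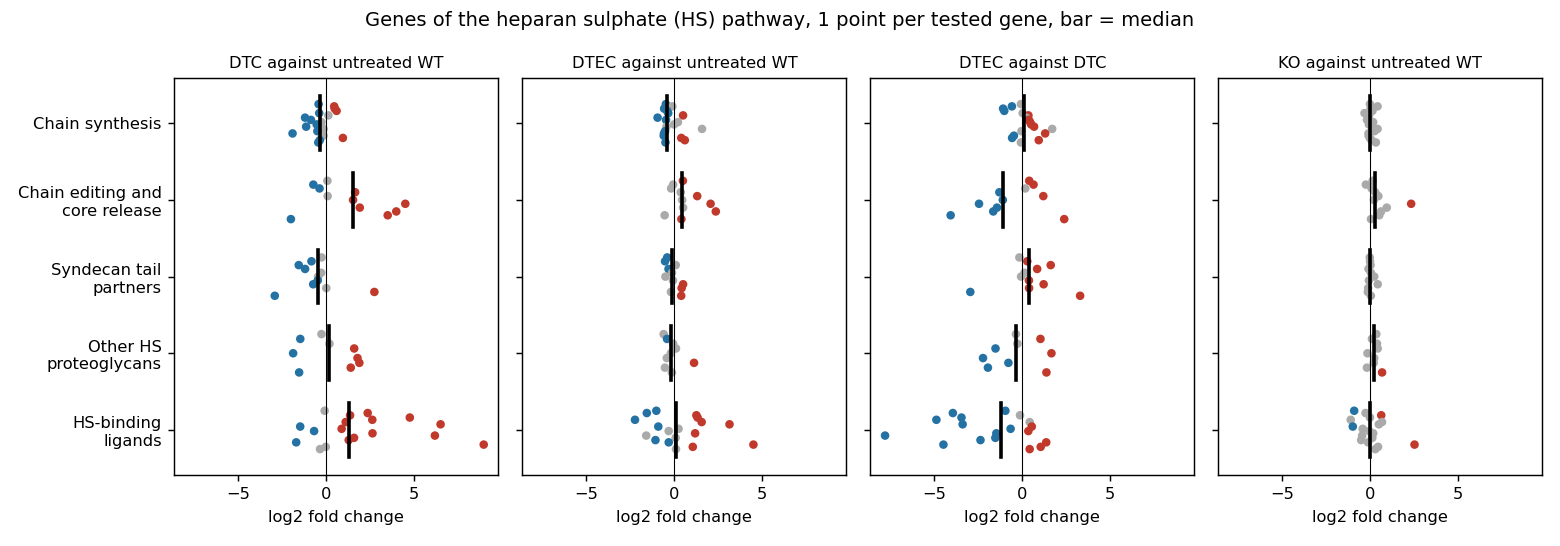
Each point is the log2 fold change (x axis, same scale in each panel) of 1 tested gene of a heparan sulphate list (y axis) in 1 contrast, red where called higher, blue where called lower and grey where not called, with a black bar at the list's median. Ligands and chain-editing genes reach farthest to the right in DTC (medians 1.35 and 1.56), and nearly all points of the KO panel are grey.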

How the data were processed

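Gene-level expected counts (estimated read counts, not scaled to depth) of 12 PC9 libraries were the values the authors deposited. Per the submitters' processing notes, Bowtie2 2.5.2, RSEM 1.3.1, DESeq2 1.40.2 and GRCh38 were used; their roles, the annotation and the strand setting are not given in the sources used here. Per the labels' protocols, libraries were made with a stranded mRNA kit in 1 batch, so no batch could be separated. All 12 values of each member were whole numbers. The table had 0 columns of other samples. Symbols matched 62700 identifiers, and coordinates and exon lengths came from GENCODE 29 (GRCh38), whose models may differ from those counted. Promoter sequences came from RefSeq (GRCh38.p14).

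Counts were rounded and fitted in R 4.3.3 with edgeR 4.0.16: filterByExpr by group (17115 genes kept), TMM scaling, 1 mean per group over all 12 libraries, robust quasi-likelihood F tests, and Benjamini-Hochberg adjustment over all tested genes. Levels per length divide CPM by exon length. The fit was tested on simulated data. Alternatives were other scalings and filters, DESeq2 1.42.0, the compared groups alone, the replicate number as a block, and leaving out each library. The members, the gene lists and the tests were chosen with earlier results of these data known. All 10 members are named. Per list and contrast up to 3 called genes with the largest absolute change and a mean of at least 5 CPM are named, plus the neighbours of GPC4, and exceptions are stated. For CD44, TGFBR3, NDST1, NDST2, PRKCA, ACTN4, PDGFB, BMP4, HBEGF and TFPI, values of contrasts outside this rule were added after they were seen. Those values are given for the main fit alone. No member is tested where it was chosen (GPC4 in KO).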

Additional observations from a re-analysis of the deposited data

Results flagged for a closer look

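Levels differed between 7 and 28 days of erlotinib, by the direct test of DTEC against DTC, for 6 of the 7 tested members. In that contrast 55.4% of all tested genes were called. The labels give no day for untreated WT, so drug and time in culture cannot be told apart. The log2 differences were -2.20 for GPC4, -1.44 for GPC2, -0.85 for GPC1, -0.65 for SDC1 and -0.39 for SDC4, and GPC6 was at least 8.84-fold higher at 28 days. In 3 of these, GPC4, GPC2 and SDC4, the 7-day rise was not called against untreated WT at 28 days.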

How the results depend on the processing

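The count of members called was 6 in DTC, 4 in DTEC, 6 in DTEC against DTC and 1 in KO (GPC4 left out), and over all alternatives it ran from 6 to 7, 3 to 5, 5 to 7 and 0 to 1. In KO it was 0 with RLE scaling, and 0 to 1 when single libraries were left out. Of 560 alternative log2 fold changes of members, 533 kept their direction and side of the threshold, 19 lost a call, 5 gained one and 3 changed sign: GPC4 in DTEC with total counts alone (0.053) and without DTEC replicate 3 (0.0067; -0.21 to 0.0067 over the left-out libraries), and GPC1 in KO without untreated WT replicate 1 (-0.052 to 0.28). GPC4 in KO has no test, so its values counted as kept when within the pooled SD of log2 CPM from the main value. Over all genes the KO calls were 738, against 2611 with the compared groups alone, 1146 with DESeq2, 1147 with no count filter and 334 to 1551 when single libraries were left out. Replicate numbers are shared by the groups but nothing in the labels pairs them. Same-numbered libraries had correlations of deviations from -0.03 to 0.18 over 18 pairs, and in KO against untreated WT 6 of 6 libraries correlated best with their own number, a hint from the data only. With the replicate block the member counts were 6, 4, 6 and 1, and the KO calls over all genes 887. GPC5 and SDC2 stayed under the floor of 3 counts in every library, where a change could not be detected at this depth, and GPC3 was called in DTC only where the count filter was dropped.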
